A study of Mus musculus with 4 samples.

Results

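Genes of the family of regulators of G protein signaling (RGS) were followed in cells of a mouse glioma-initiating line in which Eva1 was knocked down. They were Rgs2, Rgs3, Rgs4, Rgs5, Rgs7, Rgs8, Rgs10, Rgs14, Rgs16 and Rgs19, taken as the probes whose annotated gene symbol is in that list. The chip held 1 probe for each, 10 of the 16631 probes with a gene symbol, and all 10 had a value on every array. The 2 control arrays came from NSCL61 cells and the 2 Eva1 shRNA arrays from NSCL61 cells that carried a short hairpin RNA against Eva1, a cell adhesion gene now named Mpzl2. NSCL61 is a line of neural stem cells that lack p53 and overexpress an oncogenic HRas, so both groups share these changes. All samples were labelled as strain C57BL6, brain, stage P0. The series title calls the control cells contsh-expressing, and cells with the Eva1 hairpin had been selected with hygromycin. Whether either population was 1 clone is not stated in those sources, and neither is the origin of the replicate arrays. The p-values therefore measure only the spread among these arrays, of each gene and across genes, which can be technical.

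RGS proteins shorten the signal of G protein-coupled receptors. They bind the alpha subunit of an activated G protein and speed its hydrolysis of GTP, which returns the subunit to its resting state. Rgs2, Rgs3, Rgs4, Rgs5, Rgs8 and Rgs16 belong to the small R4 subfamily, Rgs7 to the R7 subfamily that pairs with the beta subunit Gnb5, Rgs10 and Rgs14 to the R12 subfamily, and Rgs19 to the RZ subfamily. Several R4 genes are known as genes whose messenger RNA responds quickly to the signals their proteins limit.

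In the Eva1 shRNA cells 1 of the 10 genes rose (Rgs2), 3 fell (Rgs5, Rgs16 and Rgs8) and 6 did not pass the test, which was limma on quantile-normalized log2 intensities, two-sided, at an adjusted p under 0.05 over all 13765 genes tested. By that rule 26.0% of all genes were called, 12.5% higher and 13.5% lower, and 4 of 10 is to be read against that share. Of those calls 48.1% were higher, and 67.7% with the authors' scaling alone. With a change of at least 2-fold as well, 1 of the 10 rose (Rgs2) and 2 fell (Rgs5 and Rgs16), against 5.17% of all genes higher, 6.41% lower and 11.6% in either direction. The groups did not overlap for 7 of the 10, 3 higher and 4 lower, against 32.6% of all genes higher, 34.1% lower and 66.7% in all. The median log2 change of the 10 was -0.22, and that of all genes was -0.01. Changes below are log2 values, Eva1 shRNA minus control, after normalization, while intensities are the authors' scaled values, on which each array has a median near 25.

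**Figure D1:**
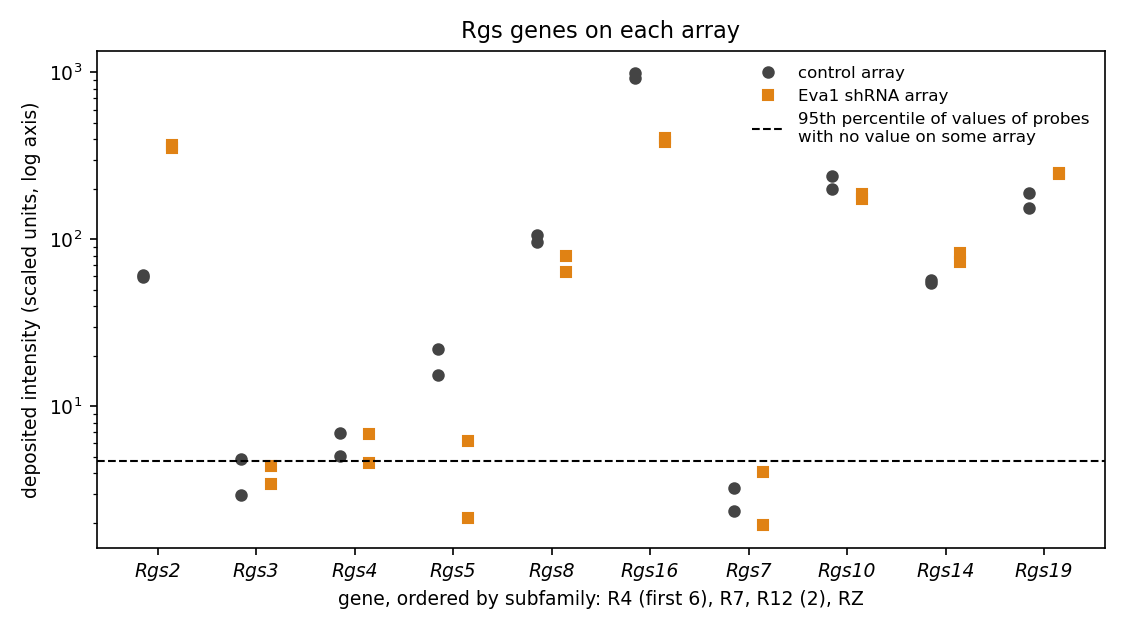
Deposited intensity (log axis) of the 10 Rgs genes on the 2 control arrays (circles) and the 2 Eva1 shRNA arrays (squares); the dashed line at 4.71 is the 95th percentile of values of probes that had no value on some array. Rgs2 stands higher and Rgs16 and Rgs5 lower on both Eva1 shRNA arrays, while Rgs3, Rgs4 and Rgs7 lie around the line.

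The knockdown and the cell type markers were looked at first. Mpzl2 read 55.0 and 54.4 in control cells and 8.20 and 6.21 after knockdown. Of 12 neural stem cell markers 9 had a value on all arrays, among them Nes (532 and 537 in control, 435 and 429.9 in Eva1 shRNA cells), Vim and Pax6. Of these 9, 2 fell, Fabp7 (-1.15, limma adjusted p = 0.00521) and Sox9 (-0.87, limma adjusted p = 0.0112). Of 72 markers in 8 cell type lists, 49 were tested, 5 rose and 8 fell, against 12.5% of all genes higher and 13.5% lower. Those that rose were Acta2 (6.22), Gja1 (1.32), Tubb3 (0.84), Col1a2 (0.76) and Pdgfrb (0.54). Besides Fabp7 and Sox9, those that fell were Flt1 (-2.05), Aldoc (-1.92), Fbln1 (-1.67), Pdgfra (-1.66), Cd68 (-1.17) and Cnp (-1.06). Replicates correlated at r = 0.991 and 0.994 across genes. In bulk RNA such as this, fewer cells of a type and less RNA per cell cannot be told apart.

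Rgs2, which acts mainly on the Gq class of alpha subunits and also restrains adenylyl cyclase, was the member that rose. The control arrays read 60.9 and 59.8 and the Eva1 shRNA arrays 370.2 and 352. The arrays of each group lay close together and far from the other group. After normalization Rgs2 was 5.25-fold higher, and its log2 change was 2.39 ± 0.14 (standard error, n = 2 arrays per group, limma adjusted p = 0.00105). That was the rise of rank 98 among 13765 genes. It was called under all 14 alternative settings, with log2 changes from 2.14 to 2.58.

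Rgs16, an R4 protein that acts on the Gi and Gq classes, fell. Control cells gave 923 and 988 and Eva1 shRNA cells 383 and 405, with no overlap. The gene was 2.72-fold lower, which is -1.44 ± 0.15 as a log2 change (standard error, limma adjusted p = 0.00356). This call too was kept under all 14 settings, between -1.53 and -1.28.

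Rgs5, an R4 gene known as a marker of pericytes, the mural cells of small vessels, also fell, but from a low signal. It read 15.4 and 22.1 in control cells against 6.18 and 2.13 after knockdown. Both Eva1 shRNA values lay below both control values, and the lower of them was under 4.71, the value below which 95% of the readings fell for probes with no value on some array. The log2 change was -2.53 ± 0.46, the widest standard error of the 10 (limma adjusted p = 0.0164). Adding 16 units to every intensity, which damps changes of dim probes, brought it to -0.86, still called. The call was lost without control array 1 (adjusted p = 0.067) and without control array 2 (adjusted p = 0.0769). Of 12 listed pericyte and smooth muscle markers 8 were tested and 2 rose, Acta2 and Pdgfrb, with 6 not passing. Their summed intensity ranged from 98.9 to 108 in control cells and from 456 to 573 after knockdown, and Acta2 alone read 4.04 and 4.38 in the former and 408 and 316 in the latter. Cspg4, Abcc9 and Cnn1 had no value on some arrays and Higd1b on all of them. The part of these cells' markers in the value of Rgs5 was not tested.

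Rgs8, an R4 gene best known from neurons, fell by a small margin. It read 107 and 96.6 in control cells and 80.1 and 63.5 after knockdown, with no overlap. The log2 change was -0.71 ± 0.16 (standard error, limma adjusted p = 0.0312). The call did not hold with the authors' scaling alone (adjusted p = 0.0839), with empty cells filled (adjusted p = 0.0548), or when any 1 array was left out. The adjusted p became 0.113 (control array 1 removed), 0.066 (control array 2), 0.0794 (Eva1 shRNA array 1) and 0.152 (Eva1 shRNA array 2). The direction was the same in each case.

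The promoters of the 3 genes that changed at least 2-fold are shown because these are the genes among the 10 whose called change was at least 2-fold, 1 up and 2 down. Each is the stretch of 250 bases before the annotated start in RefSeq (build GRCm38.p6), written 5′ to 3′ on the gene's strand. Of the 10 genes 9 were in that table, in 14 windows, and these 3 have 1 start each. Capitals mark matches, on either strand, to the CRE half-site TGACG, the GC box GGGCGG, the CCAAT box CCAAT, the TATA box TATAAA, the AP-1 site TGANTCA and the hypoxia response core ACGTG.
Rgs2 promoter (chr1:144004150-144004399, minus strand, GRCm38.p6): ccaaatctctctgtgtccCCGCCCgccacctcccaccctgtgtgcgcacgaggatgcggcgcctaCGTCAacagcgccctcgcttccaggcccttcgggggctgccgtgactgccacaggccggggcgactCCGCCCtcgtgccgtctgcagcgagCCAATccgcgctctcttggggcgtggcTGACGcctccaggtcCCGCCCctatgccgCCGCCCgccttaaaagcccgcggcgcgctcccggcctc
Rgs16 promoter (chr1:153740103-153740352, plus strand, GRCm38.p6): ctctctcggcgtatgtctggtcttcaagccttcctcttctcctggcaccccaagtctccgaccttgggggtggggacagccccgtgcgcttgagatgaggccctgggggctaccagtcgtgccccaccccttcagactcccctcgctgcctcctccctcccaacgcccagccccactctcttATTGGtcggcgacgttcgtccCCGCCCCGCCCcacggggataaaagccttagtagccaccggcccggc
Rgs5 promoter (chr1:169655251-169655500, plus strand, GRCm38.p6): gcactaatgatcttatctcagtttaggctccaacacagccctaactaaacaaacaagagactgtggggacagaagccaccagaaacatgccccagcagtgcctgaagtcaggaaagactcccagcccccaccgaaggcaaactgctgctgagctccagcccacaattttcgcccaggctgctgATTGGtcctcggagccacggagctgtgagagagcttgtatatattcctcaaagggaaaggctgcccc

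The Rgs2 window held 2 CRE half-sites, at -185 to -181 and -67 to -63 from the start, 4 GC boxes and 1 CCAAT box. The Rgs16 window held 2 GC boxes, which share a base, and 1 CCAAT box, while the Rgs5 window held 1 CCAAT box. Among all 32851 windows of this length, 17.8% held a CRE half-site, 32.7% a GC box and 33.8% a CCAAT box. The CRE half-site was thus present in the window of the gene that rose and not in the windows of these 2 that fell, although a window of Rgs8 and that of Rgs4 held it too. The GC content was 72.4% for Rgs2, 66.4% for Rgs16 and 53.6% for Rgs5, against a median of 52.4%. These matches describe the letters and not the binding of any factor. TATAAA (12.4% of windows), TGANTCA (6.75%) and ACGTG (16.6%) had no match in these 3 windows.

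**Figure D2:**
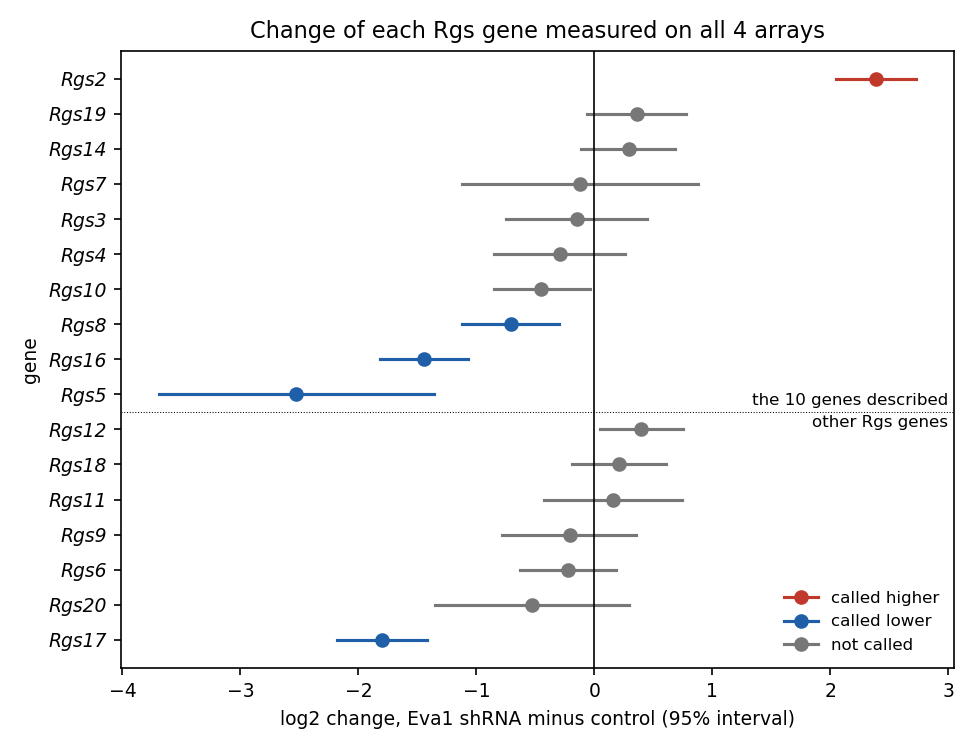
Log2 change (Eva1 shRNA minus control, points) with its 95% interval from limma (lines) for the 10 genes, above the dotted line, and for the 7 other Rgs genes tested. Rgs2 (2.39) stands apart on the right, and Rgs17 (-1.80), Rgs16 (-1.44) and Rgs5 (-2.53) on the left.

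Among the 6 genes that did not pass, 3 had clear signal and groups that did not overlap. Rgs10, which acts on the Gi class, had intensities of 239.6 and 202 in control and 174 and 187 in Eva1 shRNA cells. Its log2 change of -0.45 (95% interval -0.85 to -0.04) missed the threshold at an adjusted p of 0.0989 in limma. It was called without the dimmest 25% of probes (adjusted p = 0.0405), with 16 units added (adjusted p = 0.0188) and with eBayes trend (adjusted p = 0.0201). Rgs19, an RZ protein that acts on the Gi class, had intensities of 189.5 and 155 against 248 and 249 and a log2 change of 0.36 (95% interval -0.06 to 0.78, limma adjusted p = 0.168). Rgs14, which also binds Ras-like GTPases, had 56.8 and 54.9 against 73.0 and 82.5 and a log2 change of 0.29 (95% interval -0.11 to 0.68, limma adjusted p = 0.236). Rgs10 thus lay lower and Rgs19 and Rgs14 higher on both Eva1 shRNA arrays. The interval of Rgs10 leaves out 0 and those of Rgs19 and Rgs14 include it, and none of the 3 passed after adjustment over all genes.

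Rgs3, Rgs4 and Rgs7 gave weak signals with overlapping groups. Rgs4, an R4 gene widely expressed in neurons, had intensities of 5.06 and 6.91 in control and 6.82 and 4.58 in Eva1 shRNA cells, a log2 change of -0.29 (95% interval -0.85 to 0.26). Rgs3 had 2.94 and 4.83 against 4.41 and 3.42, a log2 change of -0.15 (95% interval -0.75 to 0.45). Rgs7, a neuronal regulator, had 3.25 and 2.37 against 1.94 and 4.06, a log2 change of -0.12 (95% interval -1.12 to 0.88). All 8 values of Rgs3 and Rgs7 were below 5, near the level at which probes had no value on some array. The intervals of Rgs4, Rgs3 and Rgs7 do not exclude changes of the size seen for Rgs8. The signs of Rgs3 and Rgs7 turned with the authors' scaling (0.04 and 0.02).

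**Figure D3:**
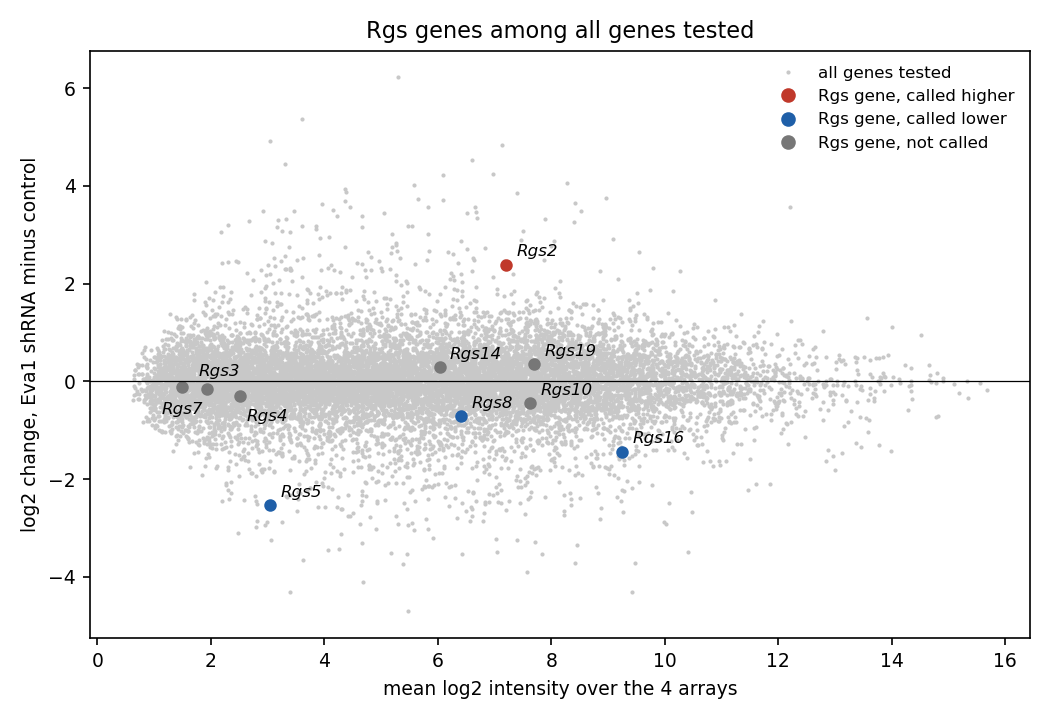
Log2 change (Eva1 shRNA minus control) against mean log2 intensity over the 4 arrays for all 13765 genes tested (grey) with the 10 Rgs genes marked by their call. Rgs2 at 2.39 and Rgs5 at -2.53 lie near the edges of the cloud, and Rgs7 and Rgs3 at its dim end.

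Within the R4 subfamily the changes thus ran in opposite directions, from 2.39 for Rgs2 to -2.53 for Rgs5. Of the 6 R4 genes among the 10, 4 were called, where 26.0% of all genes were, and Rgs18, a further R4 gene, was not (0.21, limma adjusted p = 0.374). Of these 4, Rgs2 and Rgs16 kept the call under every alternative setting, while Rgs5 and Rgs8 lost it under some. In the order of protein-coding genes of GRCm38.p6, Rgs8 and Rgs16 are neighbours on chromosome 1, and Npl, on the other side of Rgs8, was also lower (-1.30, limma adjusted p = 0.00392). Rgs5 and Rgs4 are neighbours too, with changes of -2.53 and -0.29, and Nuf2, on the other side of Rgs5, had 0.12 (limma adjusted p = 0.578). Beside Rgs2, Uchl5 had 0.14 (limma adjusted p = 0.531). Of the 4 called members, Rgs8 and Rgs16 therefore had a called neighbour among those tested, and Rgs2 and Rgs5 did not.

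The genes with the most similar profile were found by the distance between log2 values centred on each gene's mean over the 4 arrays. For Rgs2 they were Smarcad1, a chromatin remodeler gene (distance 0.15, log2 change 2.26), Pmp22, a myelin protein gene (0.159, 2.49), and the imprinted gene Mest (0.161, 2.30). For Rgs5 they were Sdc1, a syndecan proteoglycan gene (0.341, -2.45), Sapcd1 (0.48, -2.75) and Pld2, a phospholipase gene (0.573, -2.02). The 3 genes near Rgs5 shared its lower value on Eva1 shRNA array 2 than on array 1, with Sdc1 at 39.0 and 12.6. With 4 arrays in 2 groups, this distance covers only the size of the change and the spread within a group.

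Of the other Rgs genes, 7 were tested and 1 fell. The counts in this and the following lists are to be read against 26.0% of all genes called, 12.5% higher and 13.5% lower. Rgs17, an RZ relative of Rgs19, read 895 and 945 in control cells and 322 and 270.2 after knockdown. Its log2 change was -1.80 ± 0.15 (standard error, limma adjusted p = 0.00219), and it was called under all 14 settings. Rgs12, of the subfamily of Rgs10 and Rgs14, had a log2 change of 0.40 (limma adjusted p = 0.0902). It was called with the authors' scaling (0.64, adjusted p = 0.0297) and without the dimmest 25% of probes (adjusted p = 0.0426), and its change was 0.16 with 16 units added. Rgs20 had -0.53 (limma adjusted p = 0.281), with 9.67 and 17.9 on the Eva1 shRNA arrays against 15.9 and 16.9, and it was called without Eva1 shRNA array 2 (-1.03, adjusted p = 0.0457). The remaining log2 changes were -0.22 for Rgs6, -0.21 for Rgs9, 0.16 for Rgs11 and 0.21 for Rgs18. Rgs1 had no value on control array 1, 2.75 on control array 2 and 6.75 and 6.13 on the Eva1 shRNA arrays, Rgs13 had values on 2 arrays, and the probe of Rgsl1 had no value on any.

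The partners of the R7 subfamily included 1 gene that fell. Gnb5, the beta subunit that R7 proteins need for stability, had intensities of 268 and 215 in control and 124 and 109 in Eva1 shRNA cells. Its log2 change was -1.23 ± 0.17 (standard error, limma adjusted p = 0.00761), and the adjusted p was 0.0503 without Eva1 shRNA array 2. The membrane anchors Rgs7bp (-0.68, limma adjusted p = 0.0712) and Rgs9bp (0.12) and the receptor Gpr158 (-0.08) did not pass and gave weak signals, as did Rgs7 itself.

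**Figure D4:**
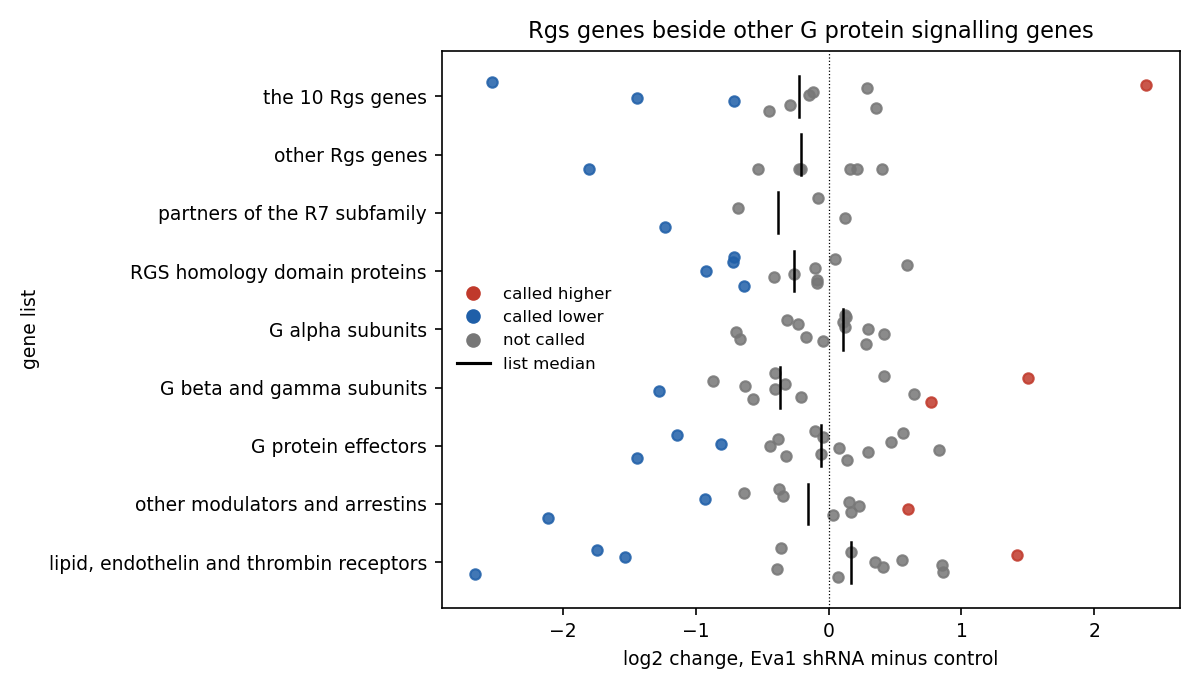
Log2 change (Eva1 shRNA minus control) of each tested gene, one point per gene coloured by its call, in the 10 Rgs genes and in 8 lists of G protein signaling genes; black lines are list medians. Rgs2 at 2.39 is the highest point, and the G alpha subunits lie between -0.70 and 0.42.

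None of the tested alpha subunits was called. Of 16 listed 13 were tested and 0 were called by limma, with 1 at an unadjusted p under 0.05, and the median change was 0.11. Gnas (-0.70), Gnao1 (0.42), Gnat2 (0.30) and Gnai3 (-0.31) had the smallest p-values. Gnas was called without the dimmest 25% of probes (adjusted p = 0.0358) and with eBayes trend (0.0298). Gnai3 was called with 16 units added (0.042) and Gnat2 with the authors' scaling (0.0477). With empty cells filled 1 alpha subunit was called higher, and it was none of these 4. Of 12 tested beta and gamma subunits 2 rose, Gng10 (1.50, limma adjusted p = 0.00329) and Gnb1 (0.77, adjusted p = 0.0466), and 1 fell, Gng11 (-1.28, adjusted p = 0.00452). Gng8 (0.64) did not pass (adjusted p = 0.0571), though it did under 5 of 14 settings. The median was -0.37, and the number that fell was 5 under eBayes trend, 4 after adding 16 units and 3 with dim probes dropped. The call of Gnb1 was lost with empty cells filled (adjusted p = 0.0794), with every probe tested (0.0574) and without control array 1 (adjusted p = 0.144), Eva1 shRNA array 1 (0.108) or Eva1 shRNA array 2 (0.192).

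Among the effectors, which carry the signal on from the alpha and beta-gamma subunits, 3 of 15 tested genes fell. These were the phospholipase C genes Plcb3 (-1.44, limma adjusted p = 0.00382) and Plcb4 (-0.81, adjusted p = 0.0415) and the adenylyl cyclase gene Adcy7 (-1.14, adjusted p = 0.014). Plcb2 had 0.47 (adjusted p = 0.0704; 0.0371 with the authors' scaling and 0.0258 without the dimmest 25% of probes), and the list median was -0.06. Plcb3 kept its call under all 14 settings. The call of Plcb4 was lost whichever array was left out (highest adjusted p 0.173, without Eva1 shRNA array 2), with the authors' scaling (0.0948), with empty cells filled (0.0731) and with every probe tested (0.0514), and that of Adcy7 without Eva1 shRNA array 1 (0.0538) or 2 (0.0777). With 16 units added the changes of Adcy7 and Plcb4 were -0.28 and -0.42. Adcy7 was dim, at 5.82 and 8.32 in control cells and 4.10 and 3.23 after knockdown.

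Proteins that carry a related RGS homology domain, among them receptor kinases and sorting nexins, gave 4 falls among 11 tested genes, with a median of -0.26. These were Grk5 (-0.92, limma adjusted p = 0.021), Snx14 (-0.72, adjusted p = 0.0272), Arhgef12 (-0.71, adjusted p = 0.0334) and Akap10 (-0.64, adjusted p = 0.0359). Arhgef12 and Akap10 lost their call whichever array was left out. Grk5 kept its call only without control array 2, and Snx14 only without control array 1. In these fits the log2 changes ran from -1.13 to -0.71 for Grk5 and -0.85 to -0.58 for Snx14. They ran from -0.86 to -0.58 for Arhgef12 and -0.76 to -0.52 for Akap10. With the authors' scaling Snx14 (0.055), Arhgef12 (0.0809) and Akap10 (0.0863) were not called, nor were Arhgef12 (0.0581) and Akap10 (0.0597) with empty cells filled, and Akap10 also had an adjusted p of 0.0506 with the replicate number as a block. The change of Arhgef12 was -0.35 with 16 units added.

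Of 10 tested arrestins and other modulators, 2 fell and 1 rose, with a median of -0.15. Arrb1, an arrestin that uncouples receptors from G proteins, had a log2 change of -2.11 (limma adjusted p = 0.00221). Arrb2, another arrestin, was not called (-0.34, adjusted p = 0.142). The alpha subunit chaperone Ric8a had -0.93 (adjusted p = 0.0096) and its relative Ric8b 0.60 (adjusted p = 0.0302), and Rasd1 had -0.37 without passing. The call of Ric8a was lost without Eva1 shRNA array 1 (adjusted p = 0.0516) or 2 (0.0645). That of Ric8b was lost whichever array was left out (highest 0.139, without Eva1 shRNA array 2) and with the replicate number as a block (0.0569), and its change was 0.30 with 16 units added.

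Of 13 tested receptors for lysophospholipids and thrombin-like proteases, 3 fell and 1 rose, with a median of 0.17. The protease-activated receptor genes F2rl2 (-2.66, limma adjusted p = 0.00105) and F2rl3 (-1.53, adjusted p = 0.00257) and the sphingosine-1-phosphate receptor gene S1pr1 (-1.74, adjusted p = 0.00785) fell, and the lysophosphatidic acid receptor gene Lpar2 rose (1.42, adjusted p = 0.00473). The number that rose was 3 with the authors' scaling, with dim probes dropped, with 16 units added, with the replicate number as a block and with eBayes trend, and 4 without control array 2. The 4 named genes kept their calls under the settings tried, with F2rl2 at -1.12 and F2rl3 at -0.43 when 16 units were added. F2rl2 read 26.0 and 27.7 in control cells and 5.42 and 4.43 after knockdown, and F2rl3 9.48 and 9.37 against 3.91 and 3.66.

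**Figure D5:**
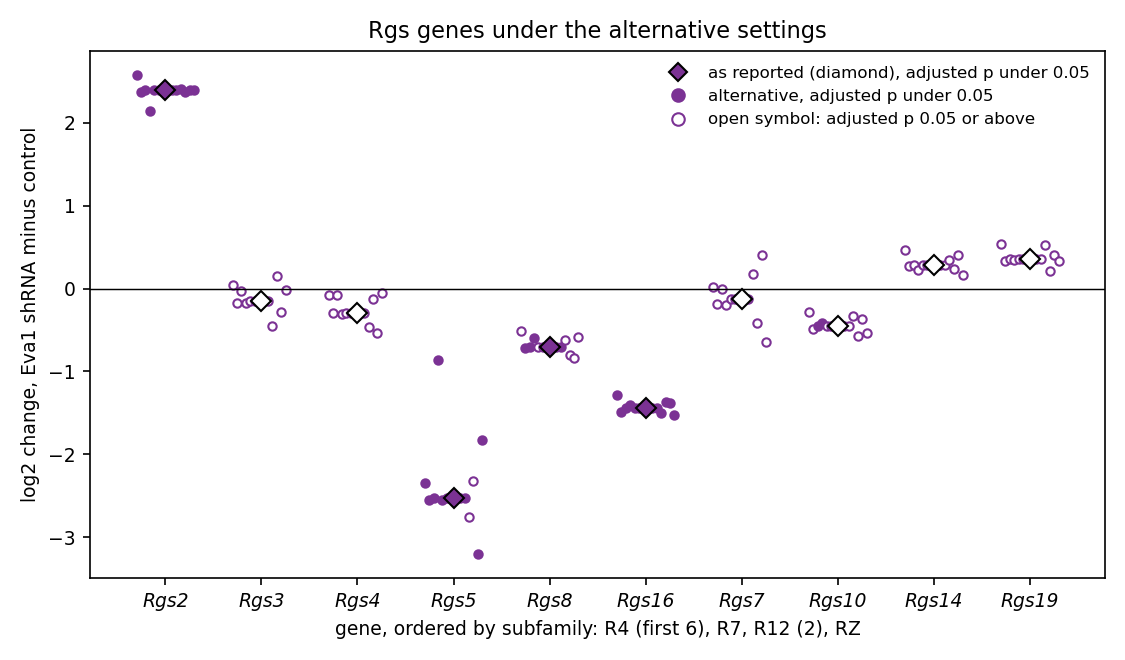
Log2 change (Eva1 shRNA minus control) of the 10 Rgs genes as reported (diamonds) and under up to 14 alternative settings (circles), filled where the adjusted p was under 0.05. Rgs2 and Rgs16 stay filled throughout, while Rgs5 and Rgs8 hold open circles and Rgs3 and Rgs7 fall on both sides of 0.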

How the data were processed

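The values were intensities of 1-colour 3D-Gene mouse chips labelled with Cy5, per the labels, scaled by the authors to a median near 25 on each array, as the values show. The labels do not state how background was treated or when a cell was left empty. Of 23473 probes 19199 had a value on all 4 arrays, 3774 on some and 500 on none. Symbols from the platform annotation were updated through RefSeq's gene table (GRCm38.p6, names only): 3947 of 16631 changed. Log2 values were quantile normalized, and each gene was represented by its probe with the highest mean (13765 genes). Groups were compared with limma 3.58.1 (R 4.3.3, eBayes without trend, Benjamini-Hochberg over genes). The code was also run on simulated data, which does not test the calls made here. Cross-hybridisation between related Rgs transcripts was not tested. With 2 arrays per group there are 2 residual degrees of freedom, which limits the precision. In the reported fit eBayes moved each gene's variance toward that of all genes, with 3.41 prior degrees of freedom. The standard errors, intervals and p-values are thus moderated and do not rest on a gene's own arrays alone.

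The members and lists were chosen with earlier results of these data known. Named were the members, Mpzl2, the other Rgs genes and R7 partners, and up to 4 genes of smallest p per pathway list. Markers that passed the test were named, and some others beside the results they touch. Of the genes searched, the 3 nearest in profile to the highest and lowest called member were named. The neighbouring genes and Arrb2 were named after their values were seen. Alternatives were other scalings, a filter on dim probes, 16 added intensity units, filled cells, a block for replicate number, robust eBayes or eBayes with a trend, averaged probes, a test of every probe, and each array left out, which leaves 1 array in a group that is assumed to vary like the other. Motifs were searched with Python 3.11.15, and figures were drawn with matplotlib 3.10.9.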

Additional observations from a re-analysis of the deposited data

How the results depend on the processing

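Rgs2, Rgs16, Rgs14, Rgs19 and Rgs4 kept their direction and their side of the threshold under every alternative that gave a value, and Rgs5 and Rgs8 kept their direction. Rgs8 lost its call with the authors' scaling (-0.51) and with empty cells filled (-0.71), and Rgs10 passed under eBayes trend (-0.45), after 16 units were added (-0.41) and after the dimmest 25% of probes were dropped (-0.45). Rgs3 (0.04) and Rgs7 (0.02) changed sign with the authors' scaling, and the causes of these differences were not tested. With those probes dropped, Rgs3, Rgs4 and Rgs7 gave no value. With 1 array left out, the log2 changes ran from -0.45 to 0.15 for Rgs3, -3.20 to -1.83 for Rgs5, -0.64 to 0.41 for Rgs7 and -0.84 to -0.58 for Rgs8. Rgs3 was above 0 without control array 2 (0.15), and Rgs7 was above 0 at 0.18 when control array 1 was left out and at 0.41 when Eva1 shRNA array 1 was.

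Of the 10 genes, 1 fell without either control array and 2 without either Eva1 shRNA array, and 1 rose in each case. Over all genes 541 to 1145 were called higher and 730 to 1156 lower with 1 array left out. With the authors' scaling alone 2714 were higher and 1295 lower, or 67.7% higher against 48.1%, and the median change of all genes was 0.18 in place of -0.01. In the 8 pathway lists the share called ran from 0% (G alpha subunits) to 36.4% (RGS homology domain proteins), against 26.0% of all genes. In these lists together 4 genes rose and 15 fell. With the authors' scaling 12 rose and 11 fell, when dim probes were dropped 10 rose and 16 fell, and after adding 16 units and under eBayes trend 8 rose and 20 fell. With 1 array left out the number that rose ran from 2 to 8 and the number that fell from 8 to 12.

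Among related genes with weak signal or a change near 0, signs turned under the authors' scaling for Rgs9 (0.02) and Gpr158 (0.12). They also turned within the range over the arrays left out, which was -0.44 to 0.02 for Rgs9, -0.15 to 0.46 for Rgs11, -0.32 to 0.56 for Rgs9bp and -0.45 to 0.30 for Gpr158.

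With the replicate number as a block 1471 genes were higher and 1631 lower, and the calls of the 10 genes were as reported. Samples of the same number did not deviate together from their group means across genes as a whole (r = -0.0247). That value cannot exclude pairing that touches only some genes, and the labels do not say whether the numbers pair the samples. The reported fit left the numbers out. Values near 4.71 and below limit what can be said of Rgs3, Rgs4, Rgs5 and Rgs7. They also limit what can be said of the size of the falls of F2rl2, F2rl3 and Adcy7.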
